A study of Bos taurus with 48 samples.

Results

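Leukocytes of 6 calves that were housed and weaned at the same time were compared between d 0, before housing, and d 1. The members were the d 0 and d 1 libraries of weaned calves 1758, 1762, 1769, 1770, 1773 and 1809, chosen by treatment, calf and day, which makes 12 libraries of 48 in all. The calves were male single-suckled beef calves, labelled as of Continental breed and named Simmental by the study, which had grazed with their dams and had been immunised against respiratory viruses before the experiment. Weaned calves (treatment W) were separated from the dam when they entered the house, and control calves (treatment C) entered it with their dam. All 12 calves of both treatments were thus housed on d 0, and no group stayed at pasture. The change within weaned calves therefore covers housing, handling, the move from grazing to silage and concentrate, and weaning together. Control calves shared all of these but the weaning. Weaned calves were penned with other weaned calves and control calves as cow-calf pairs, so the difference between the treatments also holds regrouping and penning. Each library came from total leukocytes of 1 calf on 1 day, so fewer cells of a type and less RNA per cell cannot be told apart.

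Weaning takes away milk and the dam at once, and the calf answers with cortisol and catecholamines. In blood, these hormones alter which leukocytes circulate, typically with more neutrophils and fewer lymphocytes, and they alter transcription in the cells themselves. Genes known to respond to such signals include the immediate early factors, which are transcribed soon after a cell is stimulated, chemokines, which direct the migration of leukocytes, and receptors of the innate immune system.

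Total counts of the 12 libraries lay between 2933029 and 4119875, and those of control calves on the same days between 2944964 and 3771300. Levels are given as CPM, counts per 1000000 of the TMM-scaled library total, and 3 counts in a library corresponded to 0.686 to 0.995 CPM, a limit that covers counting error only. Levels and changes were compared for the same gene and not between genes. The table carries Ensembl identifiers without symbols, and the symbols used here come from the human orthologs that the study paired with 643 of its 25669 genes. The pairs stem from genes the study itself had picked from these samples, so the genes with a symbol are not a neutral sample of the transcriptome. Of the 643, 603 reached 10 counts over the 12 libraries and were tested. No sequence or position of a gene was used here. By the study's lane list, both libraries of a weaned calf shared a flowcell, except those of calf 1809. Some libraries stood apart: over 11126 genes, the deviations of the d 0 libraries of calves 1762 and 1769 correlated at 0.24 with their own d 1 library and at 0.57 and 0.58 with that of calf 1773. In control calf 1763 the d 0 and d 1 libraries correlated at -0.51. Calves were paired by the numbers in the labels, and whether any library carries the wrong number was not tested.

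Between d 0 and d 1, 2 genes passed the test in weaned calves, 1 in each direction. HIC1 (ENSBTAG00000025130), a zinc finger repressor of transcription known as a tumour suppressor, fell to less than its d 0 level in every calf. ENSBTAG00000004950, which has no symbol here, rose in every calf. The 2 genes were 0.0142% of the 14038 tested, or 0.00712% for each direction, and both changed by at least 2-fold. DESeq2 called 274 genes, 224 of them higher, and edgeR without the minimum of 10 counts called 466, 379 of them higher. Among the genes with a symbol and the next smallest p, none of them past the threshold, were higher levels of THBS1, which encodes the adhesive glycoprotein thrombospondin 1, ABCA1, a cholesterol exporter, the immediate early factors FOS and FOSB, and KLRK1, the activating receptor NKG2D of natural killer cells.

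HIC1 stood at 22.6 CPM in the lowest, 38 CPM in the median and 62.2 CPM in the highest weaned calf on d 0, and at 11.0, 17.7 and 24.8 CPM on d 1. Every calf was lower on d 1, although the lowest d 0 level lay under the highest d 1 level. The mean was 38.3 ± 15.1 CPM (SD, n = 6) on d 0 and 17.0 ± 5.06 CPM (SD, n = 6) on d 1. The paired change was -1.16 on the log2 scale with a standard error (SE) of 0.17, which is 2.24-fold lower (edgeR quasi-likelihood test with calf as a block, adjusted p = 0.0487). The exact two-sided sign-flip test gave p = 0.03125, the smallest that 6 calves allow. Any gene with all 6 calves in 1 direction reaches it, which were 4.32% (higher) and 2.62% (lower) of all genes tested. HIC1 was picked by its p in the same libraries, so this test is not independent evidence. Control calves had 10.2, 20.9 and 26.8 CPM on d 0 and 10.6, 23.8 and 41.9 CPM on d 1, so their d 0 level was nearer to that of weaned calves on d 1 than to that on d 0. Their change was 0.28 on the log2 scale, and the change of weaned calves differed from it by -1.42 (SE 0.25, adjusted p = 0.190, unadjusted p = 2.57e-05 in edgeR). This was the smallest adjusted p of that comparison and did not pass. On d 2 and d 7, which share the d 0 libraries with this comparison, the changes of HIC1 from d 0 were -0.77 and -0.65.

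ENSBTAG00000004950 had 8.29 CPM in the lowest, 16.3 CPM in the median and 40.2 CPM in the highest weaned calf on d 0, and 23.9, 35.4 and 80.5 CPM on d 1. All 6 calves were higher on d 1, and the ranges of the days overlapped. Its change was 1.11 on the log2 scale (SE 0.15, adjusted p = 0.0487 in edgeR), against 0.04 in control calves. The difference between the treatments was 1.10 (SE 0.26, adjusted p = 0.20 in edgeR).

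The change of HIC1 lay between -1.23 and -1.0 when 1 calf was left out, but neither call was stable. HIC1 passed under 5 of 16 alternative fits and ENSBTAG00000004950 under 7 of 16, and both were lost when calf was not used as a block and when calf 1758, 1770 or 1809 was left out (adjusted p = 0.0867 to 0.423 in edgeR).

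Many more genes leaned in 1 direction than passed the adjusted test. At an unadjusted p under 0.05, 3520 genes (25.1%) differed between the days in weaned calves, 1926 of them (13.7%) higher and 1594 (11.4%) lower on d 1. In control calves, no gene of 13934 passed with edgeR or DESeq2, and 419 genes (3.01%) had an unadjusted p under 0.05, 153 (1.1%) higher and 266 (1.91%) lower. Without control calf 1763 there were 734. Levels were higher on d 1 in all 6 weaned calves for 607 genes (4.32%) and lower in all 6 for 368 genes (2.62%), against 259 (1.86%) and 216 (1.55%) in the control calves. When the change was compared between the treatments over 24 libraries, no gene of 14786 passed with edgeR, 8 passed with DESeq2, and 3301 genes (22.3%) had an unadjusted p under 0.05, 2029 (13.7%) with the higher and 1272 (8.6%) with the lower change in weaned calves. Without control calf 1763 no gene passed with edgeR and 2196 had an unadjusted p under 0.05, without calf 1762 there were 4600, and without calf 1769 there were 4363, of which 1 passed. The median change over all genes tested was 0.02 on the log2 scale in weaned and 0.01 in control calves. Among the 603 genes with a symbol it was 0.49 in weaned calves, where 485 were higher and 118 lower on d 1, and -0.13 in control calves. Of these genes, 237 (39.3%) had an unadjusted p under 0.05, 219 (36.3%) higher and 18 (2.99%) lower, and counts of single groups below are read against these shares as well as those over all genes.

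**Figure D1:**
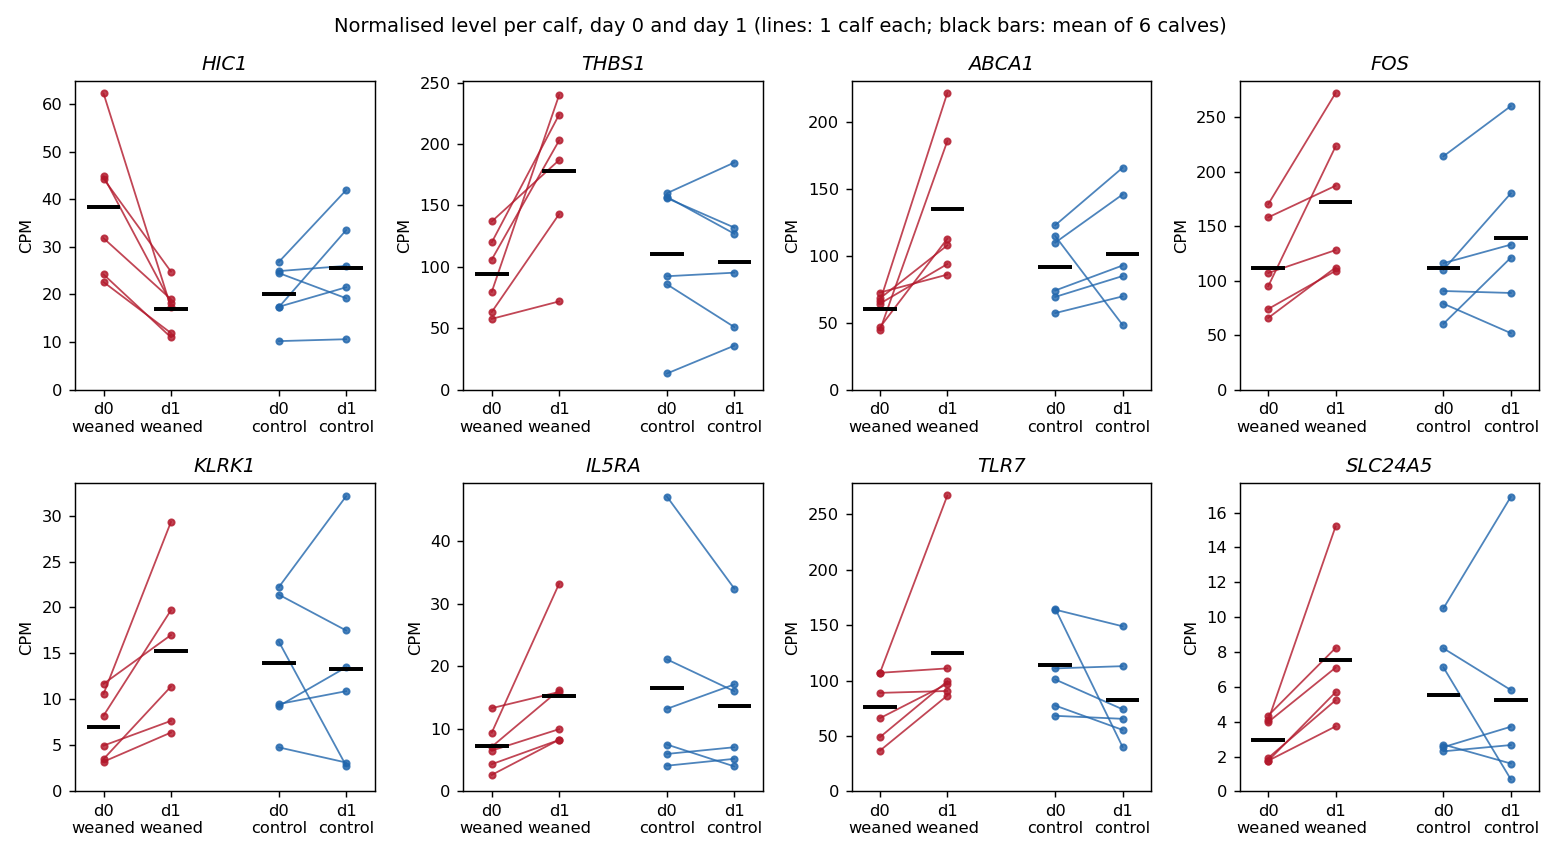
Normalised levels (CPM, linear axes from 0) of 8 genes on d 0 and d 1, with 1 line per calf, weaned calves in red and control calves in blue, and the mean of 6 calves as a black bar. All 6 red lines run down for HIC1 and up for the other 7 genes, while the blue lines run in both directions.

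The within-calf changes were not alike. Over 11126 genes with at least 240 counts in the 24 libraries of both treatments, the change in calf 1758 correlated with the mean change of the other 5 weaned calves at r = 0.66, that in 1770 at 0.74, in 1773 at 0.73 and in 1809 at 0.51. Calf 1762 was at -0.25 and calf 1769 at -0.12, so 4 calves moved together and 2 did not. These correlations are across genes, which are not independent replicates. The leading component of the 24 libraries held 51.1% of their variance. Its score went up by 40.8 in calf 1758, 43.1 in 1770, 71.8 in 1773 and 22 in 1809, whereas calves 1762 and 1769 had changes of -8.15 and -3.55.

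The number of genes with at least 1 count rose in the 4 weaned calves whose score rose. It was 13964 to 14550 in weaned calves on d 0 and 14106 to 14677 on d 1, with a mean change of 267 ± 280 (SD, n = 6, exact sign-flip p = 0.09375). Calves 1758, 1770 and 1773 gained 530, 379 and 565 genes, calf 1809 gained 232, calf 1762 gained 38, while calf 1769 had a change of -142. In control calf 1763 the score changed by -87.0 and the number of genes by -497, the opposite of calf 1773, and across genes its change correlated with that of calf 1773 at r = -0.87. With the number of genes detected as a covariate, 773 genes had an unadjusted p under 0.05 in place of 3520, and with the share of counts held by the 100 largest genes there were 441. The part that such library properties have in the changes of single genes was not tested beyond these fits.

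**Figure D2:**
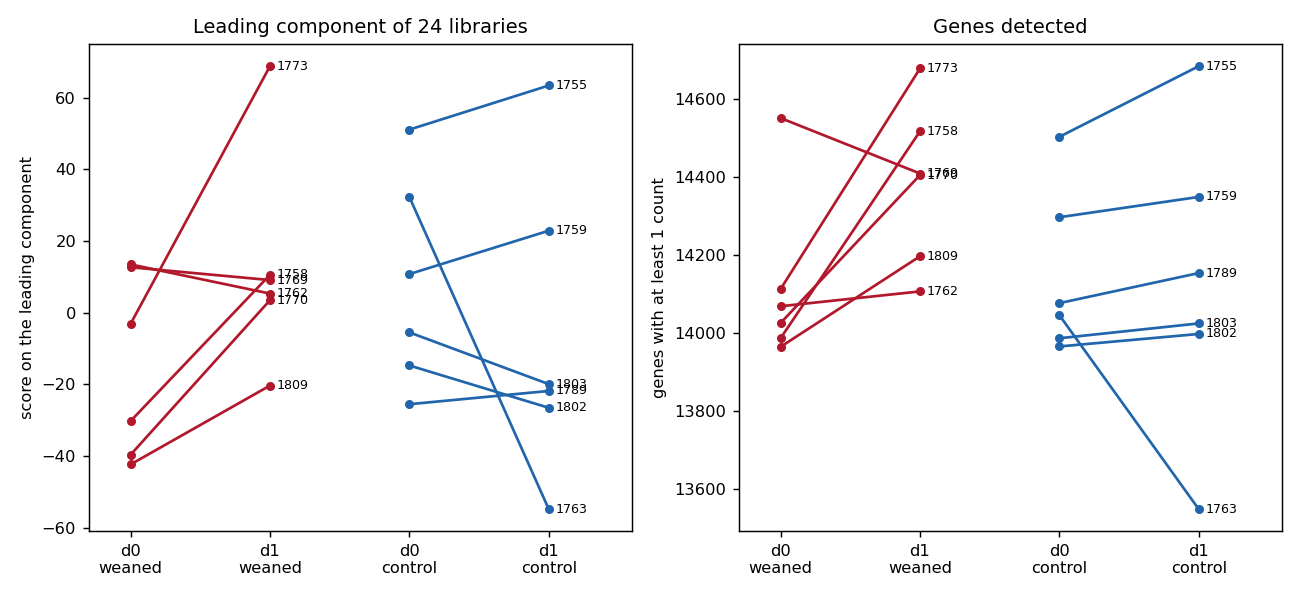
Score on the leading component of the 24 libraries (left, no unit) and number of genes with at least 1 count (right) on d 0 and d 1, with 1 line per calf labelled by calf number. Weaned calves 1758, 1770, 1773 and 1809 rise in both panels, the scores of 1762 and 1769 differ from d 0 by -8.15 and -3.55, and control calf 1763 falls from 32.3 to -54.8.

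The 15 genes with a symbol and the smallest p among those higher on d 1 had changes between 0.52 and 2.71 on the log2 scale and adjusted p between 0.0649 and 0.150 (edgeR), so none passed. All 6 weaned calves were higher on d 1 for 14 of the 15, the exception being GPAT3. In control calves the changes of the same genes lay between -0.49 and 0.27, and 10 of 15 were below 0. Control calf 1763 was lower on d 1 for 13 of the 15. For 13 of the 15 the difference between the treatments had an unadjusted p under 0.05, but adjusted p was at least 0.20 (edgeR).

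THBS1 (ENSBTAG00000002006), an adhesive protein that platelets and monocytes secrete, had 57.7 CPM in the lowest, 92.9 CPM in the median and 137 CPM in the highest weaned calf on d 0. On d 1 these were 71.9, 195 and 240 CPM. Its change was 0.88 (SE 0.14, adjusted p = 0.0649 in edgeR), with 6 of 6 calves higher. Control calves stood at medians of 124 and 111 CPM with a change of 0.00 on the log2 scale, and the difference between the treatments was 0.91 (SE 0.27, adjusted p = 0.20 in edgeR). THBS1 passed when calf 1762 or 1773 was left out.

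Lipid metabolism was represented by ABCA1, which carries cholesterol out of macrophages, and GPAT3, an enzyme of triglyceride synthesis. ABCA1 stood at 44.6, 65.2 and 72.7 CPM (lowest, median, highest) on d 0 and at 86.1, 111 and 222 CPM on d 1, so the ranges of the days did not overlap. Its change was 1.07 (SE 0.20, adjusted p = 0.150 in edgeR), and the changes from d 0 to d 2 and d 7, which share the same d 0 libraries, were 0.83 and 0.87. In control calves the change was 0.11. GPAT3 went from 14.4, 20.2 and 29.5 CPM to 19.0, 36.9 and 61.6 CPM, with 5 of 6 calves higher and a change of 0.77 (SE 0.17, adjusted p = 0.150 in edgeR).

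FOS and FOSB encode subunits of the AP-1 transcription factor and were the only members of the list of 25 immediate early genes that carried a symbol. FOS had 65.8, 101 and 170 CPM on d 0 and 109, 158 and 272 CPM on d 1, with 6 of 6 calves higher and a change of 0.60 (SE 0.12, adjusted p = 0.150 in edgeR). FOSB had 17.9, 25.7 and 35.9 CPM on d 0 and 29.6, 47.0 and 65.5 CPM on d 1, again with 6 of 6 calves higher (change 0.84, SE 0.18, adjusted p = 0.150 in edgeR). Control calves also had changes above 0, of 0.27 for FOS and 0.26 for FOSB. The treatments differed by 0.35 (SE 0.23) for FOS and by 0.61 (SE 0.27) for FOSB, and neither passed (adjusted p = 0.337 and 0.210 in edgeR).

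TSHB, the beta subunit of thyroid-stimulating hormone, had the largest change of the 15, 2.71 on the log2 scale (SE 0.67, adjusted p = 0.150 in edgeR), but the fewest counts. It had 4 counts over the 6 libraries of d 0 and 34 over those of d 1. No d 0 library exceeded 3 counts, and against the limit of 3 counts per library the d 1 mean was at least 1.70-fold higher.

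The other 9 genes have diverse roles. SLC24A5, an ion exchanger known from melanosomes, went from 1.76, 2.95 and 4.35 CPM to 3.73, 6.39 and 15.2 CPM (change 1.28, SE 0.25). CP110, a centriole protein now called CCP110, had a change of 0.94 (SE 0.19) and SMC3, a core subunit of cohesin, one of 0.53 (SE 0.13). PIK3C2A, a class II phosphoinositide kinase, had a change of 0.69 (SE 0.17), the kinase STK26 one of 0.64 (SE 0.16) and REV3L, the catalytic subunit of the translesion polymerase zeta, one of 0.52 (SE 0.13). All had an adjusted p of 0.150 in edgeR. IL5RA, TLR7 and KLRK1 complete the set and are described with their groups.

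The 15 genes with a symbol and the smallest p among those lower on d 1 were less uniform. Changes lay between -4.54 and -0.41, and adjusted p between 0.0487 and 0.173 (edgeR), with only HIC1 past the threshold. All 6 weaned calves were lower for 6 of 15. For 5 of the 15, fewer than 50 counts were found in the 12 libraries, and for 4 of the 15 at least 50% of the counts came from 1 library.

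PTPRF, a receptor tyrosine phosphatase, had the smallest p after HIC1 among these genes, and its counts were ample. It stood at 124, 258 and 352 CPM on d 0 and at 124, 157 and 319 CPM on d 1, with 6 of 6 calves lower (change -0.41, SE 0.11, adjusted p = 0.150 in edgeR). Control calves had a change of 0.07, and the difference between the treatments was -0.45 (SE 0.17). With genes detected as covariate the change of PTPRF in weaned calves was -0.102, and with the share of the 100 largest genes -0.163. EPHX2, the soluble epoxide hydrolase, was lower in 6 of 6 calves (change -0.64, SE 0.21), but its change in control calves was -0.36 and the difference only -0.26 (SE 0.32, adjusted p = 0.634 in edgeR). HSPA6, a heat shock protein of the HSP70 family, was likewise lower in 6 of 6 weaned calves (change -0.62, SE 0.26) and had a change of -0.57 in control calves.

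CDKN1C, an inhibitor of cyclin-dependent kinases, had 3.98, 6.95 and 14.6 CPM on d 0 and 2.62, 4.25 and 7.23 CPM on d 1. Its change of -0.75 (SE 0.25, adjusted p = 0.153 in edgeR) was shown by 5 of 6 calves, against 0.40 in control calves. ACE, the angiotensin-converting enzyme, had a change of -0.61 (SE 0.21) and ADRB3, the beta-3 adrenergic receptor, one of -0.78 (SE 0.29), each with 5 of 6 calves lower and adjusted p of 0.153 and 0.155 in edgeR. ID1, an inhibitor of basic helix-loop-helix factors, had a change of -1.23 (SE 0.35), and 41.2% of its counts in the 12 libraries came from calf 1769 on d 0.

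The d 0 library of calf 1769 also carried the change of ADM, which encodes the vasodilator peptide adrenomedullin. It held 84.3% of the counts of ADM, at 36.8 CPM, while the median calf of d 0 had 0.568 CPM and that of d 1 0.542 CPM. The fitted change was -1.93 (SE 0.75, adjusted p = 0.161 in edgeR), only 4 of 6 calves were lower, and without calf 1769 the change was 0.28. Both identifiers that carry the symbol FOLR1, the folate receptor alpha, had their largest share of counts in the same library, 84.8% and 71.6%. ZIM2 had 15 counts over the 6 libraries of d 0, of which calf 1758 gave 66.7%, and none in the 6 libraries of d 1, which gives no fold above the limit of 3 counts. PTGDS, a prostaglandin D synthase, and IRS1, a docking protein of the insulin receptor, had 13 and 18 counts over the libraries of d 0 and 3 and 6 over those of d 1.

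**Figure D3:**
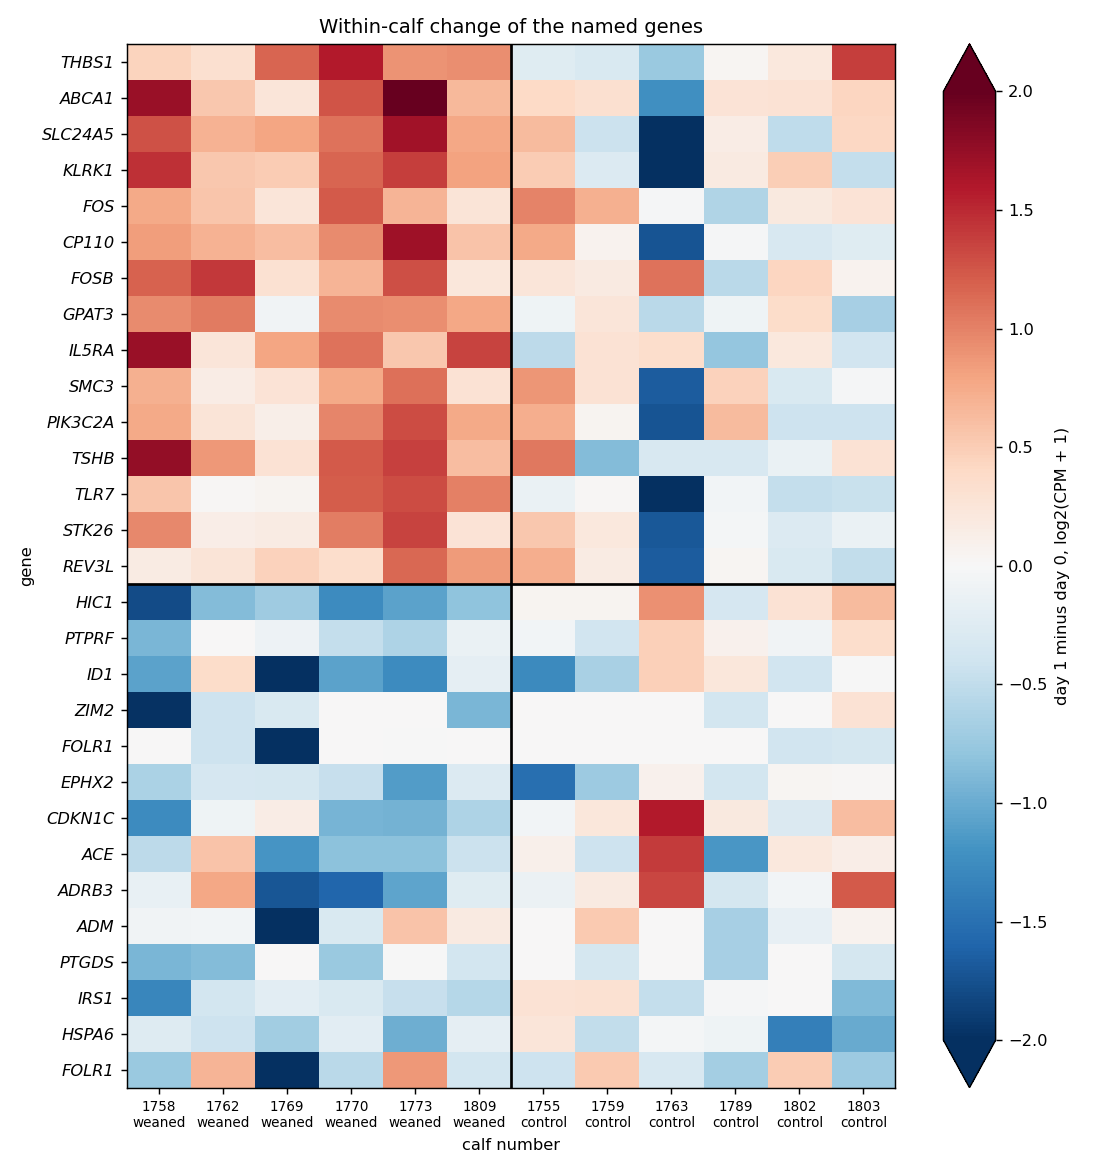
Change from d 0 to d 1 on the log2(CPM + 1) scale in each calf (columns, 6 weaned and 6 control) for the 15 higher and 14 of the 15 lower genes with the smallest p (rows), red for higher and blue for lower on d 1, with colours saturating at 2. The upper left block is red but for GPAT3 in calf 1769 (-0.0774), and in control calf 1763 13 of the 15 upper rows are blue.

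Cell type markers were checked as far as symbols allowed. None of the 16 markers of mature neutrophils, 14 of B cells or 6 of plasma cells had a symbol. The main leukocyte classes of blood could therefore not be followed in these counts. In the study's blood counts, neutrophil percentage rose and lymphocyte percentage fell on d 1 in weaned calves, with no such change in control calves. The part of that shift in the changes of single genes was not tested. Markers of other blood cells were present at low to moderate levels, with the eosinophil and basophil list at 130 to 314 CPM in sum on d 0 and 206 to 418 CPM on d 1. T cells were represented by TRAT1 alone, an adaptor of the T cell receptor, at a median of 27.2 CPM on d 0 and 40.6 CPM on d 1.

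Natural killer and cytotoxic genes were higher on d 1 for all 5 members tested, and 2 of them, KLRK1 and CD160, had an unadjusted p under 0.05. Among the 603 genes with a symbol, 485 were above 0 and 36.3% were higher at that p, so the 2 are near that share. Over all genes 13.7% were higher at that p. The smallest of the 5 changes was 0.0665. The median change of the list was 1.07 on the log2 scale, against 0.49 among genes with a symbol and 0.02 among all genes. KLRK1 had 3.23, 6.61 and 11.7 CPM on d 0 and 6.40, 14.2 and 29.3 CPM on d 1, with 6 of 6 calves higher (change 1.07, SE 0.21, adjusted p = 0.150 in edgeR). In control calves its change was -0.20, and the difference between the treatments was 1.29 (SE 0.41, adjusted p = 0.20 in edgeR). KLRC1 and KLRD1, which encode the NKG2A and CD94 chains of a receptor for class I molecules, had changes of 1.26 (SE 0.60) and 0.54 (SE 0.33), each with 4 of 6 calves higher. CD160 had 1 count over the d 0 libraries and 9 over those of d 1, so its change carries little weight. The summed level of the 5 markers was 10.6 to 42.1 CPM on d 0 and 14.8 to 80.1 CPM on d 1, a mean change of 0.59 ± 0.46 on the log2 scale (SD, n = 6, exact sign-flip p = 0.0625). In control calves it was -0.62 ± 0.91 (SD, n = 6, exact sign-flip p = 0.125). The 5 markers have a symbol through the study's picks from these samples, so neither p is independent evidence.

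Receptors of eosinophils and basophils were also among the genes with the lower p-values. IL5RA, the receptor subunit through which interleukin 5 maintains eosinophils, had 2.64, 6.83 and 13.3 CPM on d 0 and 8.23, 12.9 and 33.2 CPM on d 1. All 6 calves were higher (change 1.02, SE 0.23, adjusted p = 0.150 in edgeR), while control calves had a change of -0.18. FCER1A and MS4A2, the alpha and beta chains of the high-affinity IgE receptor, had changes of 0.63 (SE 0.21) and 0.72 (SE 0.27). The more abundant ALOX15, the 15-lipoxygenase of eosinophils, stood at 94.5, 171 and 237 CPM on d 0 and 134, 168 and 301 CPM on d 1, with 3 of 6 calves higher and a change of 0.05 (SE 0.13). The erythroid and eosinophil factor GATA1 had a change of -0.09 (SE 0.20). The list as a whole had 3 of 6 members higher at an unadjusted p under 0.05, 0 lower, and a median change of 0.58. Among all genes with a symbol 36.3% were higher and 2.99% lower at that p. Its summed level had a mean change of 0.17 ± 0.38 (SD, n = 6, exact sign-flip p = 0.3125). As a mean of the members' log2 levels, in which abundant ALOX15 weighs no more than the others, the change was 0.43 (exact sign-flip p = 0.03125, the smallest that 6 calves allow). The members have a symbol through the study's picks from these samples, and IL5RA was picked in this comparison. Neither p is therefore independent evidence.

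Genes of tissue cells varied widely between libraries, and platelet and erythroid markers stood out in that of calf 1769 on d 1. The 8 stromal markers, led by the collagens COL1A1, COL1A2 and COL3A1 and by fibrillin FBN1, summed to 7.63 to 399 CPM on d 0 and 4.0 to 406 CPM on d 1. Calf 1769 had the highest sum on both days, and calf 1809 went from 337 to 4.0 CPM. COL1A1 accordingly spanned 1.33 to 181 CPM on d 0 and 0.267 to 101 CPM on d 1, with 3 of 6 calves higher, and its change of -0.95 (SE 0.71) did not pass (adjusted p = 0.389 in edgeR). Without calf 1809 the change of COL1A1 was -0.0855 and that of COL1A2 -0.0246. The 4 platelet markers summed to 7.38 to 16.2 CPM in 5 of the d 1 libraries and to 78.9 CPM in that of calf 1769. The 3 erythroid markers stood at 65.3 CPM in the same library and at 6.81 to 12.5 CPM in the other 5. Without calf 1769, 6 genes passed and 4886 had an unadjusted p under 0.05.

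Of the chemokine genes with a symbol, all 10 were tested, and 5 were higher on d 1 at an unadjusted p under 0.05, 0 lower. Among all genes with a symbol 36.3% were higher and 2.99% lower at that p, and over all genes 13.7% and 11.4%. The study had listed these 5 chemokines, and 1 more that did not reach that p here, as higher in this comparison. The count is therefore not independent evidence. None passed the adjusted test. The list had a median change of 1.15, against -0.24 in control calves. Levels were low throughout. CXCL8, which attracts neutrophils, had 0.543, 0.62 and 0.915 CPM on d 0 and 0.267, 1.81 and 7.86 CPM on d 1, with 3 of 6 calves higher (change 1.70, SE 0.58, adjusted p = 0.153 in edgeR). CCL24, an attractant of eosinophils, was higher in 6 of 6 calves, with 6 counts over the d 0 libraries and 22 over those of d 1. CCL2, an attractant of monocytes, had 2 and 17 counts, of which calf 1769 on d 1 gave 52.6%, and CXCL5 had 6 and 33 counts, of which the same library gave 53.8%. XCL2 had 1 and 9 counts. The better expressed CCL4 and CXCL10 had changes of -0.19 (SE 0.19) and -0.16 (SE 0.30).

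Among interleukins and their receptors, 2 of 8 members were higher at an unadjusted p under 0.05, IL5RA and IL23R, and 0 lower. The shares among genes with a symbol were 36.3% higher and 2.99% lower, and the study had listed both genes as higher in this comparison. IL23R, a receptor subunit of cells that make interleukin 17, was higher in 6 of 6 calves but had 9 counts on d 0 and 24 on d 1 (change 1.28, SE 0.56, adjusted p = 0.182 in edgeR). IL18, IL15RA, IL12B and LIF, all with over 100 counts on each day, had changes between -0.08 and 0.13.

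All 4 genes of Toll-like receptor signalling with a symbol were higher on d 1 at an unadjusted p under 0.05, out of 33 on the list, with a median change of 0.68. Among all genes with a symbol 36.3% were higher at that p, and over all genes 13.7%. The 4 have a symbol through the study's picks from these samples, so their count is not independent evidence. None passed the adjusted test. TLR7, the receptor of single-stranded RNA in endosomes, had 36.8, 77.5 and 107 CPM on d 0 and 86.5, 98.3 and 267 CPM on d 1. All 6 calves were higher (change 0.67, SE 0.17, adjusted p = 0.150 in edgeR), in calves 1762 and 1769 by only 0.027 and 0.0461 on the log2(CPM + 1) scale. In control calves its change was -0.49, and the difference between the treatments was 1.18 (SE 0.32, adjusted p = 0.20 in edgeR). TLR3, the receptor of double-stranded RNA, had a change of 0.68 (SE 0.21) with 4 of 6 calves higher, and TLR10 one of 0.81 (SE 0.24) with 6 of 6. MAP3K7, the kinase TAK1 that relays these signals, had a change of 0.59 (SE 0.21). With genes detected as covariate the changes were 0.238 for TLR7, 0.129 for TLR3, 0.367 for TLR10 and -0.000468 for MAP3K7. The costimulatory ligand CD80, the only gene of its list with a symbol, went from a median of 22 CPM to 36.7 CPM (change 0.68, SE 0.22, 4 of 6 calves higher).

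Of the mitotic cell cycle genes, 8 of 35 had a symbol and all 8 had a change above 0, 3 of them with an unadjusted p under 0.05. Among the 603 genes with a symbol, 485 were above 0 and 36.3% were higher at that p, so the 3 are near that share. NUF2 and CENPE, which attach chromosomes to the spindle, had changes of 1.07 (SE 0.29) and 0.84 (SE 0.23), and POLE2, a subunit of DNA polymerase epsilon, one of 1.22 (SE 0.37). Each was higher in 6 of 6 calves. POLE2 stood at 0.549, 1.41 and 4.57 CPM on d 0 and 2.13, 3.75 and 6.29 CPM on d 1, its change in control calves was -0.97, and the difference between the treatments was 2.21 (SE 0.51, adjusted p = 0.20 in edgeR). CDK1 and BUB1B, the most highly counted of the other 5, had changes of 0.14 (SE 0.24) and 0.12 (SE 0.25).

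In eicosanoid synthesis, 1 of 6 members was higher and 2 lower at an unadjusted p under 0.05. Among all genes with a symbol 36.3% were higher and 2.99% lower at this p, and over all genes 13.7% and 11.4%. The members have a symbol through the study's picks from these samples, so these counts are not independent evidence. PLA2G4A, the cytosolic phospholipase A2 that releases arachidonic acid, had 3.23, 4.08 and 6.86 CPM on d 0 and 5.66, 7.40 and 27.0 CPM on d 1, with 5 of 6 calves higher (change 1.01, SE 0.28, adjusted p = 0.150 in edgeR). The 2 lower ones, PTGDS and PTGES, had 13 and 19 counts over the d 0 libraries. Of the receptor system of adrenomedullin, CALCRL, its receptor, went from a median of 6.54 CPM to 9.06 CPM and was higher in 6 of 6 calves (change 0.92, SE 0.24, adjusted p = 0.150 in edgeR). In calf 1773 on d 1 it reached 37.7 CPM, which was 30.6% of its counts in the 12 libraries.

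**Figure D4:**
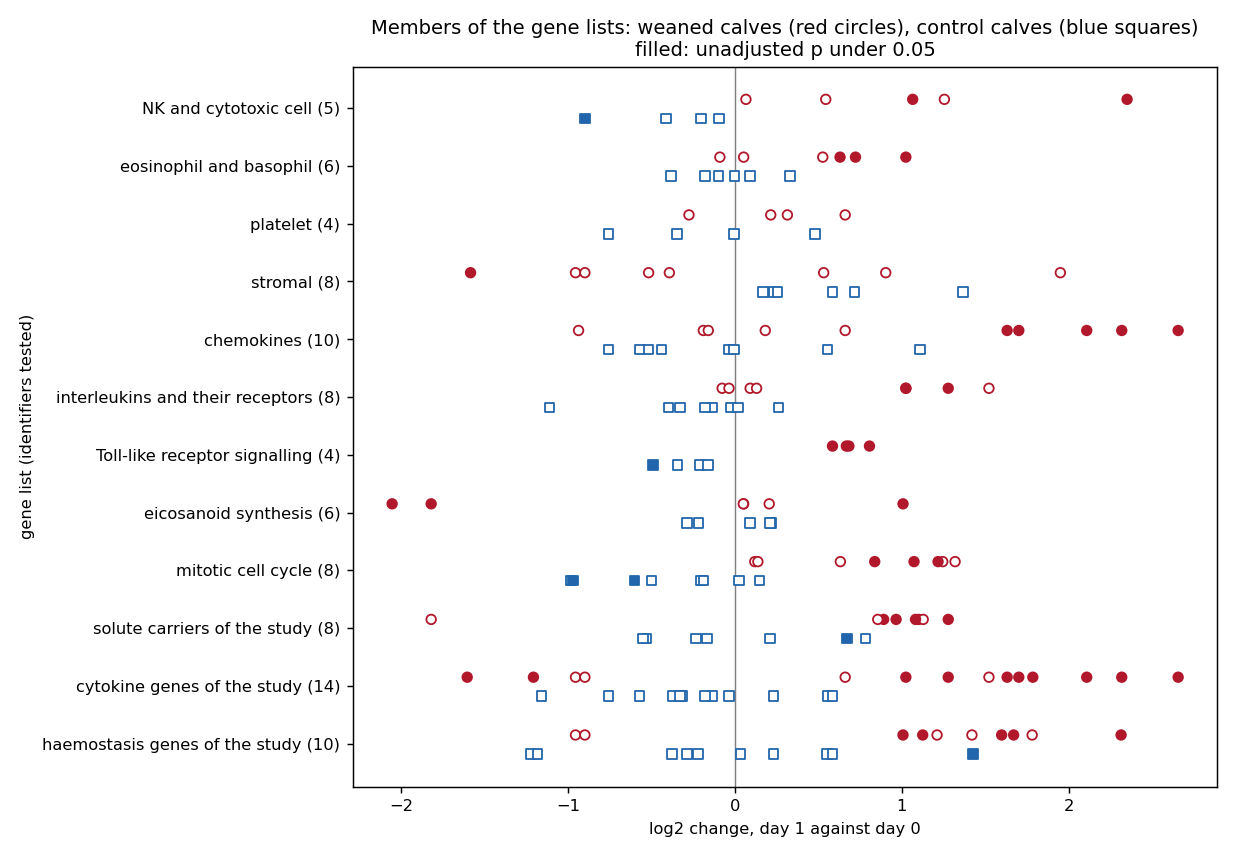
Change from d 0 to d 1 (log2 scale) of the members of 12 gene lists with at least 4 identifiers tested, weaned calves as red circles above and control calves as blue squares below, filled where the unadjusted p was under 0.05. All 4 Toll-like receptor signalling genes and all 8 mitotic genes lie right of 0 in weaned calves, while the stromal genes spread from -1.58 to 1.95. Of the 603 genes with a symbol, 485 were above 0 in weaned calves.

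The study placed genes of this comparison in the 3 groups below and in G-protein-coupled receptor signalling, which held ADM and CALCRL. It had chosen all these genes on these samples, so their direction is not independent evidence. At an unadjusted p under 0.05, 36.3% of all genes with a symbol were higher and 2.99% lower, and over all genes 13.7% and 11.4%. Of the study's 8 transmembrane transport genes, 5 were higher at that p and 0 lower, with a median change of 1.02. Besides SLC24A5 these were the nucleoporin NUP54, at 1.10 (SE 0.38), the anion transporter SLC22A7, at 0.97 (SE 0.37), the ion exchanger SLC24A1, at 0.89 (SE 0.39), and the choline transporter SLC5A7, at 1.08 (SE 0.49). Their median d 0 levels lay between 0.905 and 1.56 CPM, so that 1 count weighs heavily. Of its 14 cytokine genes, 8 were higher and 2 lower, with a median change of 1.40. The 2 lower ones were IRS1 and BMP6, a growth factor (change -1.21, SE 0.56). Of its 10 haemostasis genes, 5 were higher and 0 lower. CPB2, an inhibitor of fibrinolysis, had a change of 1.13 (SE 0.37) with 37 and 87 counts. SERPINB2, an inhibitor of plasminogen activators, had 3 and 20 counts, and ITGA2, the collagen-binding integrin alpha 2, had 6 and 23. No gene of the 3 groups passed the adjusted test (edgeR, adjusted p at least 0.150).

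A further 19 lists had only 1 to 3 identifiers tested and are given by single genes. The splicing factor CDC40 was higher in 6 of 6 calves (change 0.71, SE 0.19, adjusted p = 0.150 in edgeR). The proteasome ATPase PSMC6 was higher in 6 of 6 as well (change 1.16, SE 0.35), and so was CD226, an adhesion receptor of T and natural killer cells (change 0.61, SE 0.19). The fungal receptor CLEC7A of monocytes had a change of 0.83 (SE 0.39), and 34.8% of its counts came from calf 1773 on d 1. The other monocyte marker with a symbol, the scavenger receptor MARCO, had 32 counts on d 0, of which calf 1769 held most, and 6 on d 1, and the median change of the pair was -0.47. BGN, which encodes the matrix protein biglycan, had 21 counts on d 0 and 7 on d 1. None of these passed the adjusted test.

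**Figure D5:**
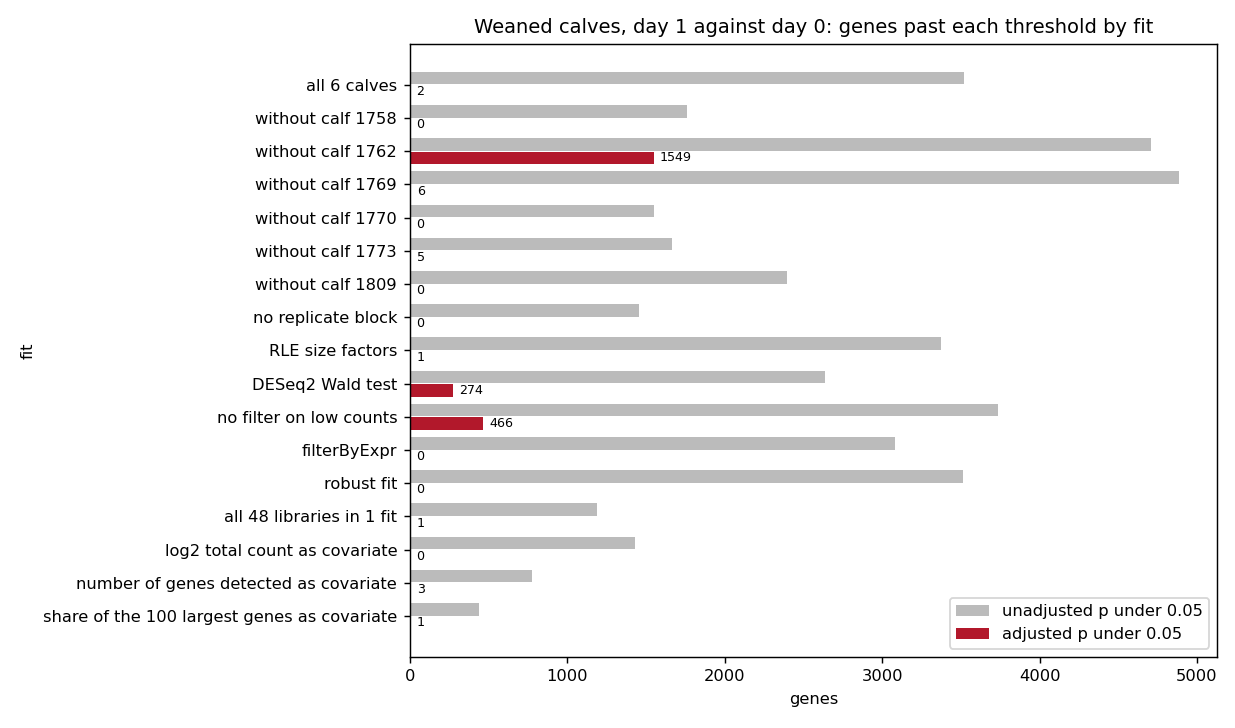
Number of genes past an unadjusted p of 0.05 (grey) and an adjusted p of 0.05 (red, with the count beside the bar) for d 1 against d 0 in weaned calves under 17 fits, with all 6 calves on top. The fit without calf 1762 stands apart with 1549 genes past the adjusted threshold, against 0 to 6 when another calf was left out.

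The count of genes past the threshold rested on single calves. Without calf 1762, 1549 genes passed the adjusted test, 1088 of them higher and 461 lower, and 4706 had an unadjusted p under 0.05, whereas without calf 1758, 1770 or 1809 none passed the adjusted test (edgeR, with 1761, 1553 and 2396 at an unadjusted p under 0.05). Without calf 1773, the one with the largest score change, 5 genes passed. Calf 1762 had the shallowest d 0 library of the 6, with a total count of 2933029.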

How the data were processed

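The authors deposited 1 table of raw counts per Ensembl gene for 48 leukocyte libraries. Per the labels and the study's methods, 36 bp reads were processed with CASAVA 1.6, checked with FastQC 0.9.1, aligned to Btau4.0 with Bowtie 0.12.7 without mismatches, reduced to unique alignments and 1 read per position, and counted with HTSeq 0.4.6p2. Use of strand is not stated. Removing reads at shared positions compresses high counts.

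Counts of genes with at least 10 in the libraries compared were tested with edgeR 4.0.16 (R 4.3.3), TMM and quasi-likelihood F-tests with calf as a block, with 0.05 as the limit for p-values adjusted after Benjamini and Hochberg. Libraries were paired by the calf number in the labels, on which every blocked value rests. Deviations of its d 0 and d 1 libraries correlated at 0.24 to 0.75 in weaned calves, although 2 of the 6 d 0 libraries resembled calf 1773 on d 1 more. In control calf 1763 the value was -0.51. Sign-flip tests on log2(CPM + 1) enumerated 64 sign changes. Named genes were the 15 with a symbol and the smallest p per direction, members of 37 lists and genes the study grouped. Members and lists were chosen with earlier results of these data known. Alternatives included DESeq2 1.42.0. The procedure was tested on simulated data with independent genes and known changes. These held no component common to many genes that shifts within a calf, so that feature of the libraries was not covered. Some single genes of these groups are not reported here.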

Additional observations from a re-analysis of the deposited data

Results flagged for a closer look

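Among 73 sets of 6 within-calf changes, chance would set about 1 in 20 apart, and 7 held a calf far from the other 5. On the log2(CPM + 1) scale these were calf 1773 for CP110 (1.69), calf 1769 for GPAT3 (-0.0774) and for ADM (-3.89), calf 1758 for IRS1 (-1.30) and calf 1809 for COL1A1 (-7.16). Control calf 1763 stood apart in the score of the leading component (-87.0) and in the number of genes detected (-497).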

How the results depend on the processing

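Of 69 single genes whose change is described, 62 kept their direction under all of up to 16 alternatives. With genes detected as covariate, 25 of the 69 had under 50% of their change, and with the 100 largest genes 29, 32 under either. The lowest values over the alternatives with all calves were 0.057 for CD80, 0.0304 for TRAT1, 0.187 for GPAT3 and 0.34 for ABCA1, against 0.841 for THBS1. The causes of the shifts below were not tested, and covariates for genes detected and for the 100 largest genes were chosen after seeing the data. In weaned calves, 2 genes passed the adjusted threshold. The number was 0 without the replicate block, 1 with RLE scaling, 274 with DESeq2, 466 without a filter, 0 with filterByExpr, 0 with a robust fit, 1 with all 48 libraries, 0 with the total count as covariate and 1 with the share of the 100 largest genes. With a 2-fold minimum these were 0, 1, 5, 34, 0, 0, 1, 0 and 1. Leaving out 1 calf gave 0 to 1549 genes, or 0 to 114 with the 2-fold minimum.

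At an unadjusted p under 0.05, the 3520 genes became 1456 without the replicate block, 1189 with all 48 libraries, 1430 with the total count, 773 with genes detected and 441 with the 100 largest genes, and 1553 to 4886 without 1 calf. In control calves, 243 genes passed with genes detected as covariate, 1 of them by 2-fold, and 0 to 0 without 1 calf. Their 419 genes at an unadjusted p became 107 without the replicate block, 249 with DESeq2, 261 with all 48 libraries, 871 with the total count, 2125 with genes detected, and 214 to 734 without 1 calf. For the difference of changes, DESeq2 called 8 genes (4 by 2-fold) and the fit of all 48 libraries 1 (1 by 2-fold), and leaving out 1 calf gave 0 to 1, the 1 without calf 1769. Its 3301 genes at an unadjusted p became 681 without the replicate block, 1526 with all 48 libraries, 1083 with genes detected, 700 with the 100 largest genes, and 1745 to 4600 without 1 calf.

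Changes of sign were found for ADM (-3.04 to 0.278 without 1 calf), GATA1 (0.373 with genes detected, 0.265 with the 100 largest genes, -0.218 to 0.0582 without 1 calf) and ALOX15 (-0.0655 to 0.19 without 1 calf). With the share of the 100 largest genes, MS4A2 stood at -0.00834 and PLA2G4A at -0.0387, and with genes detected MAP3K7 stood at -0.000468 and CXCL8 at -0.145. The summed neutrophil granule markers changed by -0.0535, and by 0.0705 as a mean of log2 levels. At total counts of 2933029 to 4119875, changes of genes with a few counts per library were not resolved.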
